A study of Mus musculus with 6 samples.

Results

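Tek, which encodes the angiopoietin receptor Tie2, was examined together with 7 genes of the same signalling system on 6 Affymetrix arrays of sorted mouse bone marrow cells. The 8 genes were Tek, Tie1, Angpt1, Angpt2, Ptprb, Flt1, Kdr and Flt4, of 22180 genes with a single symbol in the array annotation. Where a gene had several probe sets, the one with the highest mean over the 6 arrays stood for it. Tek was chosen because it read lower in the knockout, so its values are a description and carry no test. The other 7 were chosen by family.

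The cells were megakaryocyte-erythroid progenitors (MEP), the marrow cells that form platelet-producing megakaryocytes and red cells. According to the labels, 3 arrays held RNA of T-bet knockout mice and the other 3 of wild-type controls, all on the C57BL/6 strain, with a different mouse for each array. T-bet is the transcription factor encoded by Tbx21. The cells were sorted from fresh marrow, with no growth or other treatment named. The labels used here name neither the knockout allele nor the age of the mice. The question is how the loss of T-bet changes gene expression in these progenitors.

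Tie1 and Tek are the Tie receptor tyrosine kinases. Angpt1 switches Tek on, whereas Angpt2 acts as a context-dependent agonist or antagonist, and the phosphatase encoded by Ptprb dampens Tek signalling at the endothelial surface. Flt1, Kdr and Flt4 are the VEGF receptors, which with Tek form blood and lymphatic vessels. In marrow, Tek is known from endothelium and from haematopoietic stem cells, and Angpt1 is made by stem and progenitor cells as well as by stroma.

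Values are log2 signals, and array medians lay between 6.44 and 6.53. Tbx21, the targeted gene, read 6.41, 6.60 and 6.46 in knockout replicates 1 to 3, against 6.54, 6.62 and 6.60 in wild-type replicates 1 to 3. These groups overlapped, and no source used here places its probe set within the gene, so the genotype labels were not checked by it. The progenitor kinase gene Kit read 11.99 to 12.03 in knockout and 11.95 to 12.07 in wild-type arrays. Gata1, the transcription factor shared by both MEP lineages, read 10.94 to 11.00 in knockout and 10.91 to 11.00 in wild-type arrays. Xist, the RNA of the inactive X chromosome, was above 11 and the Y-linked gene Eif2s3y above 8 on the same array in knockout replicates 1 and 2 and wild-type replicate 1. Replicate 3 of both groups had Eif2s3y without Xist, and wild-type replicate 2 had Xist without Eif2s3y. Arrays with both signals go against the description as single mice, so p-values measure the spread between these arrays, whatever mice each held.

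Tek had the lowest knockout signals relative to wild type among the 8 genes, and the other 7 gave differences between -0.25 and 0.09 on the log2 scale. Of those 7, 5 were below 0 and 2 above, with a median of -0.09. Over all 22180 genes 51.8% were below 0 and the median was -0.0045. None of the 7 passed limma's Benjamini-Hochberg adjusted p of 0.05, at which 0.0% of all 41345 probe sets were called, and none had an unadjusted p under 0.05 on the probe set that stood for it, against 3.13% of all genes.

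The promoters of the pair of Tie receptor genes are shown because these related genes gave unlike differences. Tek was chosen for its difference and Tie1 by family, and their differences were not tested against each other. The promoters come from RefSeq on the GRCm38.p6 build and run from 250 bases before to 50 bases after the start site. Tek is at chr4:94739039-94739338 on the plus strand and Tie1 at chr4:118489800-118490099 on the minus strand. Capitals mark matches to the motifs described next.
Tek: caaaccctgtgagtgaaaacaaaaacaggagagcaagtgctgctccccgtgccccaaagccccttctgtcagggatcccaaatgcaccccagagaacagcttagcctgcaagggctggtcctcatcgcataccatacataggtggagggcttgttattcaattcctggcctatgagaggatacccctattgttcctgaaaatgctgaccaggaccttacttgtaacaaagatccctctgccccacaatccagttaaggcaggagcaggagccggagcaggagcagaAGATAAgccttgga
Tie1: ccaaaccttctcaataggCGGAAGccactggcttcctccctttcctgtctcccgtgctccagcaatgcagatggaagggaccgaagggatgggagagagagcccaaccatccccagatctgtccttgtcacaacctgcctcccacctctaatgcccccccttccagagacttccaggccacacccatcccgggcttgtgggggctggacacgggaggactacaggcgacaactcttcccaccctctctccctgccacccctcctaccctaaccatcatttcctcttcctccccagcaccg

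Both strands were searched for the GATA motif AGATAA, the ETS motif CGGAAG and the T-box motif GGTGTGA. No match of one overlapped another. The promoters of Tek, Tie1, Kdr, Flt1 and Flt4 were searched, 5 of the 8 genes. Tek held 1 match, a GATA motif starting 36 bases after the start site, a motif found in 11.2% of the 32851 mouse promoters in the table. Tie1 held 1 ETS match, 232 bases before the start site, and 16.9% of promoters held that motif. The T-box motif was in 0 of the 5 and in 3.98% of all promoters. A match is a string of letters and not a measured site.

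Tek read 5.86, 5.90 and 6.01 in knockout replicates 1 to 3, against 6.25, 6.39 and 6.52 in wild-type replicates 1 to 3. All 3 knockout values were below all 3 wild-type values, and the gap between the highest knockout and the lowest wild-type array was 0.24, beside a range of 0.15 within the knockout and 0.26 within the wild-type group. The means were 5.92 ± 0.08 in knockout and 6.39 ± 0.13 in wild-type arrays (SD, n = 3 each). The difference was -0.46, or 0.725 times the wild-type signal. By this difference Tek was gene 69 of 22180, counted from the lowest. Because Tek was chosen for reading lower in the knockout, this rank and the separation describe that choice and are no test. Such separation, with the knockout lower, was found in 5.18% of all genes. Among the arrays with both Xist and Y-linked signal, the mean was 5.88 in the 2 knockout arrays and 6.25 in the single wild-type array. With Y-linked signal alone, Tek read 6.01 in the knockout array and 6.52 in the wild-type array. Since all 3 knockout values were below all 3 wild-type values, the direction within each class was fixed beforehand. The part of the sex-linked signal in the Tek values was not tested.

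Tie1, the partner that forms heteromers with Tek and modulates its signalling, showed no such separation. It read 6.14, 5.98 and 6.18 in knockout replicates, against 5.92, 6.09 and 6.30 in wild-type replicates. The lowest and the highest of the 6 values were both wild type. The difference was -0.0033 (SE 0.13, 95% interval -0.31 to 0.30, limma adjusted p = 1). The sign of so small a difference depended on the scaling, since it was 0.0029 after a further quantile normalization.

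Ptprb encodes the receptor phosphatase VE-PTP. Its signal was 5.92, 5.81 and 5.75 in knockout arrays, against 5.95, 5.81 and 5.98 in wild-type arrays. The groups overlapped, with replicate 2 of both groups at almost the same value. The difference was -0.09 (SE 0.10, 95% interval -0.32 to 0.14, limma adjusted p = 1).

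**Figure D1:**
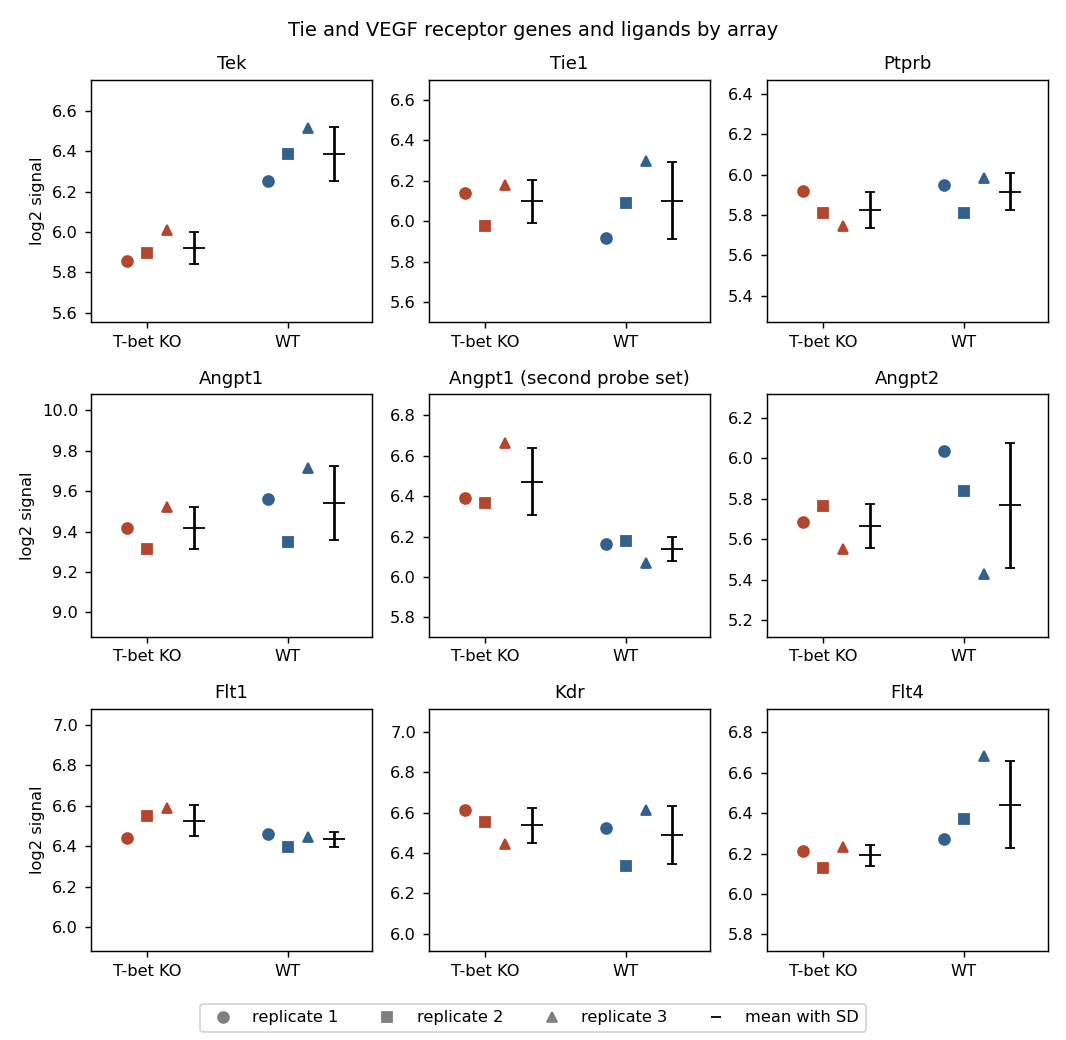
Log2 signal (y axis, 1.2 log2 units high in each panel, each panel with its own centre) of the 9 probe sets of the 8 genes in T-bet knockout and wild-type arrays, with 1 symbol per replicate and the mean with SD to the right of the points. The knockout arrays of Tek lie between 5.86 and 6.01, below the wild-type arrays at 6.25 to 6.52, and the 2 probe sets of Angpt1 differ in opposite directions.

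Angpt1, the activating ligand of Tek, had 2 probe sets, which disagreed. The brighter one, 17316780, read 9.42, 9.31 and 9.52 in knockout arrays, against 9.56, 9.35 and 9.72 in wild-type arrays. Every same-numbered pair was lower in the knockout, but the groups overlapped. The labels do not say what a number shares, and the fit did not pair the arrays. The means were 9.42 ± 0.10 in knockout and 9.54 ± 0.19 in wild-type arrays (SD, n = 3 each). The difference was -0.12 (SE 0.12, 95% interval -0.42 to 0.17, limma adjusted p = 1).

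The second Angpt1 probe set, 17311312, went the other way. It read 6.39, 6.36 and 6.66 in knockout arrays, against 6.16, 6.18 and 6.07 in wild-type arrays. All 3 knockout values lay above all 3 wild-type values, as they did not for the brighter probe set. The difference was 0.34 (SE 0.11, 95% interval 0.07 to 0.60) and fell short of the threshold (limma adjusted p = 1, unadjusted p = 0.0213). At an unadjusted p under 0.05 there were 4.92% of all probe sets, and 9.26% had groups that did not overlap in either direction. No source used here says which exons or transcripts the probe sets read. The mean of both differences was 0.11.

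Angpt2, the second ligand, had the widest wild-type spread of the 8 genes (SD 0.31). It read 5.68, 5.77 and 5.55 in knockout arrays, against 6.04, 5.84 and 5.43 in wild-type arrays. The knockout values fell inside the wild-type range. The difference was -0.10 (SE 0.17, 95% interval -0.50 to 0.30, limma adjusted p = 1), and it was 0.03 without wild-type replicate 1.

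Of the VEGF receptors, Flt4 (VEGFR3), known from lymphatic and sinusoidal endothelium, had the lowest difference. It read 6.21, 6.13 and 6.23 in knockout arrays, against 6.27, 6.37 and 6.68 in wild-type arrays. The groups did not overlap, but 0.04 separated knockout replicate 3 from wild-type replicate 1. Groups that did not overlap, with the knockout lower, occurred in 5.18% of all genes and in 1 of the 7 genes other than Tek. The difference was -0.25 (SE 0.13, 95% interval -0.55 to 0.05, limma adjusted p = 1). The highest array was wild-type replicate 3, and without it the difference was -0.13.

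Flt1 (VEGFR1), which binds VEGF-A tightly and can limit its supply to Kdr, read 6.44, 6.55 and 6.59 in knockout arrays, against 6.46, 6.39 and 6.44 in wild-type arrays. Knockout replicates 2 and 3 were above every wild-type array and knockout replicate 1 was below 2 of them. The difference was 0.09 (SE 0.09, 95% interval -0.12 to 0.30, limma adjusted p = 1). Kdr (VEGFR2), the main signalling receptor for VEGF-A, read 6.62, 6.55 and 6.44 in knockout arrays, against 6.52, 6.33 and 6.61 in wild-type arrays. These values were interleaved. The difference was 0.05 (SE 0.11, 95% interval -0.21 to 0.31, limma adjusted p = 1).

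On the probe sets that stood for them, the 7 genes other than Tek had 95% intervals within 1.5-fold in either direction, as did 85.9% of all genes. The second Angpt1 probe set reached past it, to 1.52-fold. These are bounds on the array signal, and a dim signal can understate a difference in RNA. Whether the probe sets lay above background is unknown here. All 8 were outside the dim 30% of probe sets by mean, with Angpt2 closest at the percentile of 30.5. The mean of Tek over all arrays was 6.15, below the median of every array. Among T cell genes the means were 6.26 for Cd3e, 6.19 for Cd4, 5.48 for Cd3g and 5.38 for Cd8a, on both sides of Tek. A place outside the dim 30% therefore does not show that Tek or the other genes were expressed.

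**Figure D2:**
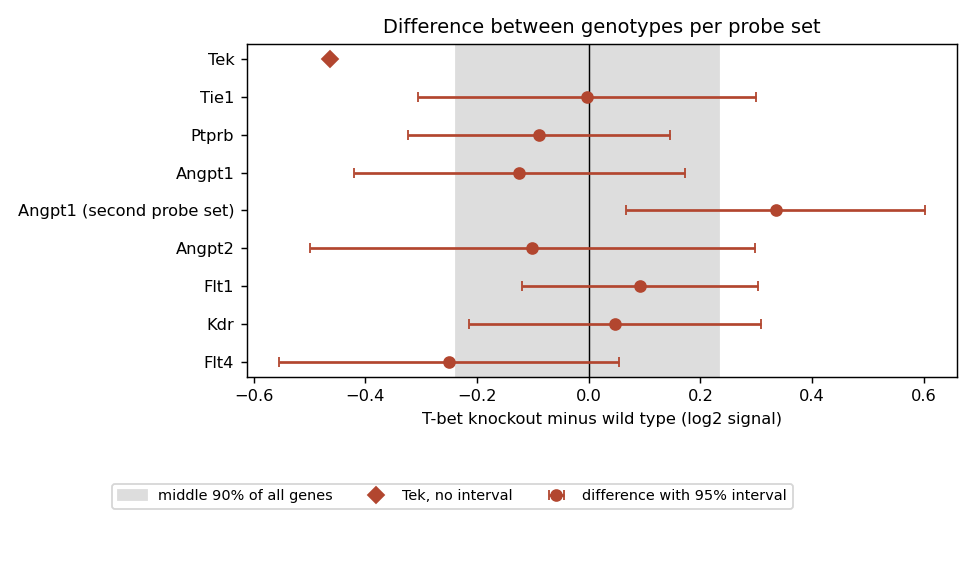
Difference in log2 signal, T-bet knockout minus wild type (x axis), for the 9 probe sets, with limma's 95% intervals except for Tek, which was chosen by this difference. The grey band spans the middle 90% of all genes, -0.24 to 0.23. Tek, Flt4 and the second Angpt1 probe set lie outside it, and of the intervals drawn the one that does not cross 0 belongs to that Angpt1 probe set.

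The rest of the pathway was read from 5 gene lists. Among Tie ligands and modulators 7 of 10 genes were measured, 4 above 0 and 3 below, with a median of 0.02. Lect2, a secreted protein that binds Tie1, read 4.89, 4.80 and 4.63 in knockout arrays, against 5.24, 5.15 and 5.10 in wild-type arrays. Its groups did not overlap and its difference was -0.39 (SE 0.10, limma adjusted p = 1), at a signal in the dim 30%. Angpt4, the third angiopoietin, differed by -0.15 (SE 0.12). The angiopoietin-like gene Angptl1 differed by 0.13 (SE 0.13), also at a signal in the dim 30%.

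VEGF ligands and co-receptors had small differences. Of 7 measured genes 6 were below 0, with a median of -0.04. Vegfd, a ligand of Flt4 in mice, differed by 0.22 (SE 0.12). Nrp1, a co-receptor of Kdr, differed by -0.17 (SE 0.14) and Pgf, a ligand of Flt1, by -0.19 (SE 0.16). The ligand genes Vegfa and Vegfb averaged 8.29 and 10.04 in knockout arrays, against 8.33 and 10.12 in wild-type arrays.

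Proteins that carry the Tie2 signal into the cell were mostly slightly above 0. Of 20 measured genes in a list of 21, 13 were above 0 and 7 below, with a median of 0.03. Dok2, an adaptor that docks on phosphorylated Tie2, read 7.10, 6.78 and 6.92 in knockout arrays, against 7.11, 7.10 and 7.21 in wild-type arrays. Knockout replicate 1 lay within the wild-type range, and the difference was -0.20 (SE 0.11). The kinase subunit gene Pik3ca differed by 0.09 (SE 0.08), the adaptor gene Grb2 by -0.09 (SE 0.10), and Foxo1, the transcription factor that Tie2 signalling through AKT keeps out of the nucleus, by 0.06 (SE 0.09).

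Among 18 transcription factors known at Tie and VEGF receptor genes, 10 were below 0 and 8 above, with a median of -0.0058. Sox17, an endothelial and stem cell factor, read 6.36, 6.38 and 6.41 in knockout arrays, against 6.57, 6.76 and 6.70 in wild-type arrays. Its groups did not overlap and the difference was -0.29 (SE 0.09, limma adjusted p = 1). Fli1, an ETS factor of megakaryocytes and endothelium, averaged 9.84 ± 0.17 in the knockout and 10.06 ± 0.23 in the wild type (SD, n = 3 each), and differed by -0.23 (SE 0.15). Epas1, a hypoxia-inducible factor, differed by -0.21 (SE 0.13).

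A list of other receptor tyrosine kinases was mostly slightly below 0. Of 20 measured genes in a list of 21, 16 were below 0 and 4 above, with a median of -0.04. Kit, the brightest of them, differed by -0.00037 (SE 0.085). Fgfr3, a fibroblast growth factor receptor, read 5.69, 5.81 and 5.74 in knockout arrays, against 6.11, 5.82 and 6.06 in wild-type arrays. Its groups came within 0.014 of each other without overlapping, and it differed by -0.25 (SE 0.11). Tyro3, a receptor for the ligand Gas6, differed by -0.23 (SE 0.12) and Met, the hepatocyte growth factor receptor, by -0.22 (SE 0.14). Across the 5 lists no gene passed the adjusted threshold. Lect2, 1 of 7 genes in its list, and Sox17, 1 of 18, had an unadjusted limma p under 0.05. Both were lower in the knockout, as 1.7% of all genes were. With the knockout lower, groups did not overlap in 1 of 7, 1 of 18 and 1 of 20 genes in the lists of Lect2, Sox17 and Fgfr3. They did so in no gene of the VEGF ligand and Tie2 transducer lists, against 5.18% of all genes.

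**Figure D3:**
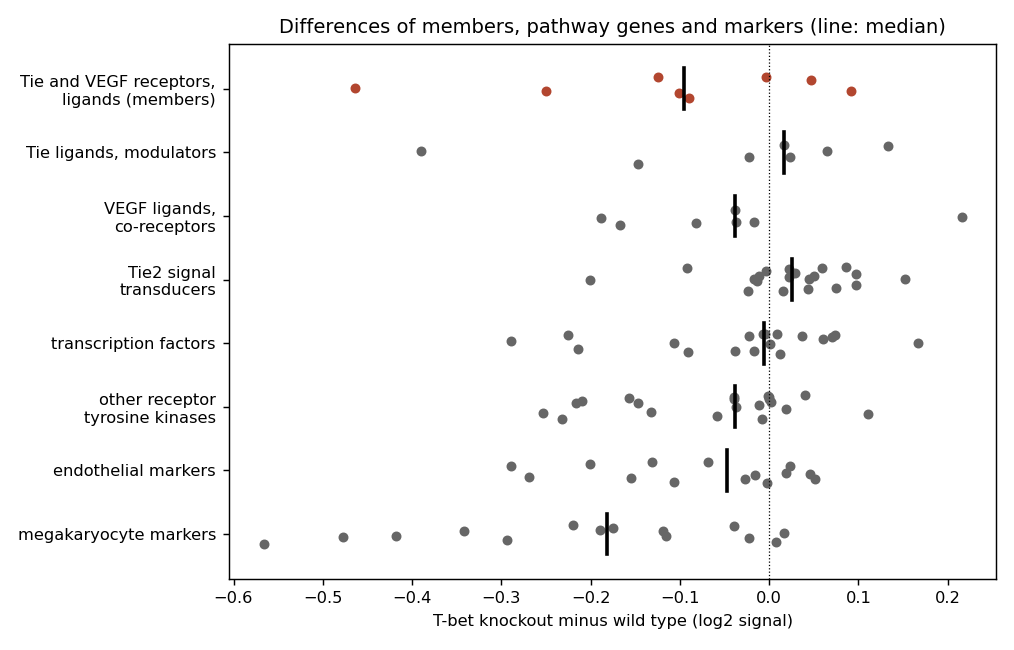
Difference in log2 signal, T-bet knockout minus wild type (x axis), for each measured gene of the 8 members, the 5 pathway lists and the endothelial and megakaryocyte marker lists. Points are genes, spread vertically for legibility, and the black lines are medians. The median is -0.10 for the members, with Tek included, and -0.09 for the members other than Tek. It is -0.18 for the megakaryocyte markers, while the Tie2 signal transducers centre on 0.03.

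In sorted cells analysed in bulk, fewer cells of a type and less RNA per cell cannot be told apart, so markers of the cells that carry these receptors are given beside the Tek result. Of 14 endothelial markers 10 were below 0, with a median of -0.05. In 4 of the 14 all knockout arrays were below all wild-type arrays, as in 5.18% of all genes, and 1 of them, Sox17, had an unadjusted p under 0.05, as had 1.7% of all genes with the knockout lower. The other 3, named after their values were seen, were Stab2, a sinusoidal scavenger receptor gene (-0.27, SE 0.12), the guidance receptor gene Robo4 (-0.20, SE 0.09) and Egfl7, which encodes a secreted endothelial factor (-0.16, SE 0.09). The summed signals of the list on the linear scale ranged from 4101 to 4516 in knockout arrays, against 4229 to 4359 in wild-type arrays. Eng made up most of that sum, and without it the range was 1398 to 1465 in knockout arrays, against 1459.6 to 1511 in wild-type arrays. Cdh5, the cadherin that defines endothelium, read 5.72, 5.68 and 5.72 in knockout arrays, against 5.57, 5.66 and 5.74 in wild-type arrays. It differed by 0.05 (SE 0.09) at a dim signal. Stab2 was dimmer than Cdh5, with a mean over all arrays of 5.38 against 5.68. Only 0.0074 separated the highest knockout array of Stab2 from its lowest wild-type array.

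Megakaryocyte markers read mostly lower in the knockout, as Tek did, and 0 passed the adjusted threshold. Of 14 measured markers 12 were below 0, with a median of -0.18. All knockout arrays were below all wild-type arrays in 5 of the 14, against 5.18% of all genes. With the knockout lower, 4 of the 14 (F2rl3, Trpc6, P2rx1 and Itga2b) had an unadjusted limma p under 0.05, against 1.7% of all genes. Gp9, the brightest marker, differed by -0.02 (SE 0.11). The marker lists were chosen with earlier results of these data known, so these shares are a description and not a test. The summed signal of the 14 markers ranged from 1728 to 2056 in knockout arrays, against 1969.6 to 2328.5 in wild-type arrays. Without Gp9 the range was 1305 to 1523 in knockout arrays, against 1500 to 1830 in wild-type arrays. Of 12 stem and multipotent progenitor markers 9 were below 0 (median -0.11), with sums of 6399 to 6662 in knockout arrays, against 6415 to 6612 in wild-type arrays. Without Kit, the brightest of them, the sums were 2252 to 2588 in knockout arrays, against 2311 to 2456 in wild-type arrays. Marrow stromal markers, 8 of 10 below 0 (median -0.06), summed to 836 to 1011 in knockout arrays, against 834 to 1013 in wild-type arrays. Erythroid markers had 3 of 13 below 0 and a median of 0.04. The remaining marker lists had medians of 0.15 (T and NK cell), 0.09 (B cell), 0.01 (granulocyte), -0.02 (mast cell and basophil) and -0.06 (macrophage). The part of these cell types in the Tek values was not tested.

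The genes whose pattern over the 6 arrays was most like that of Tek were sought among 14647 genes outside the dim 30%. Cldn4, a tight junction claudin, had the highest Pearson correlation (r = 0.993), followed by Fam217b (r = 0.987), Sez6l (r = 0.982), Cacfd1 (r = 0.974) and Rmnd1 (r = 0.974). Cldn4 read 6.08, 6.10 and 6.17 in knockout arrays, against 6.42, 6.47 and 6.65 in wild-type arrays. It shares with Tek both the gap between the genotypes and the order of the arrays within each. The differences of the other 4 were -0.32, -0.10, -0.08 and -0.22 in the order named. These correlations describe 6 arrays that fall into the 2 genotypes Tek was chosen on.

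**Figure D4:**
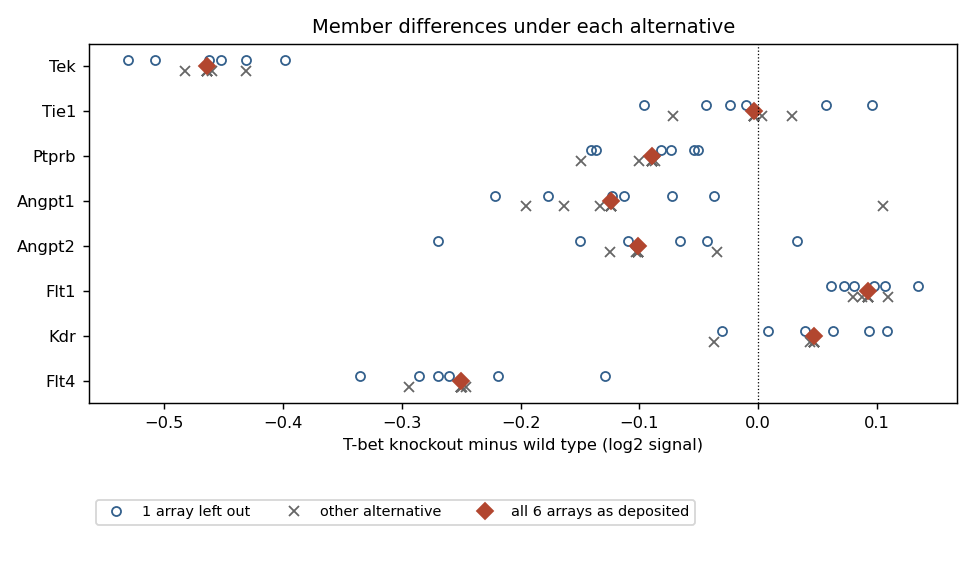
Difference in log2 signal, T-bet knockout minus wild type (x axis), of the 8 genes with all 6 arrays as deposited (diamonds), with 1 array left out (circles) and under the other alternatives (crosses). Tek lies between -0.53 and -0.40 in the settings drawn, with its direction set by its choice, while Tie1, Angpt1, Angpt2 and Kdr have values on both sides of 0.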

How the data were processed

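The deposited table holds 1 log2 signal for each of 41345 probe sets on each of 6 arrays, as deposited by the authors. The submitters' processing notes name Affymetrix Expression Console 1.4.1.46. The log2 scale was inferred from the values. How background, normalization and probe summary were done is not given in the sources used. Probe sets were named from the array annotation, 23521 with 1 gene symbol, updated by gene ID through RefSeq (GRCm38.p6) for 23328. None of the members' 9 probe sets had values identical to another's.

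Knockout minus wild type was fitted over all probe sets with limma 3.58.1 (lmFit, eBayes) in R 4.3.3, with Benjamini-Hochberg adjustment and a threshold of 0.05. The fit was tested on simulated data in which arrays varied independently. That did not cover deviations shared by same-numbered arrays. SE and 95% intervals are limma's. Genes named beyond the members were the 3 of smallest p in each pathway list, known list members (Vegfa, Vegfb, Foxo1), markers that define a cell type or separated the groups, and the 5 most like Tek, skipping predicted genes. Members, lists and rules were chosen with earlier results of these data known. The number of arrays, 3 per group, limits the precision.

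Same-numbered arrays deviated together (r = 0.285, 0.116 and 0.115 over 1 probe set per gene, and 0.212, 0.0569 and 0.140 over all probe sets), and the labels do not say what a number shares. Alternatives were scaling, dim and unnamed probe sets left out, limma-trend, array weights, the replicate block, a block for Xist and Y-linked signal, and leaving out each array.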

Additional observations from a re-analysis of the deposited data

How the results depend on the processing

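With the replicate block 0 probe sets passed limma's adjusted p of 0.05, as without it, and that block changed no call. The count was 1 with arrays centred on their median, 1 with array weights and 0 to 2 with 1 array left out (2 without knockout replicate 3), and 2033 had an unadjusted p under 0.05. On the probe sets that stood for them, none of the 7 genes other than Tek was called in these settings, while the second Angpt1 probe set had an unadjusted p under 0.05. Tie1 changed sign after a further quantile normalization (0.0029) and with the sex-linked class as a block (0.029), and ranged from -0.10 to 0.10 with 1 array left out. Kdr was -0.038 with the sex-linked block and -0.031 to 0.11 with 1 array left out. Angpt2 ranged from -0.27 to 0.033 with 1 array left out. Angpt1 was 0.11 as the mean of its 2 probe sets. The cause of these changes was not tested, apart from the second Angpt1 probe set, whose own difference is positive. Tek ranged from -0.53 to -0.40 over 14 alternatives and Flt4 from -0.33 to -0.13. The median over all probe sets was 0.0056 as deposited and -0.0093 after quantile normalization, the larger shift of the 2 scalings. Dim signals limit what can be seen of genes such as Lect2.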
